A study of Homo sapiens with 12 samples.

Results

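The 6 UDP-glucuronosyltransferases of the UGT2B family examined here (UGT2B7, UGT2B10, UGT2B11, UGT2B15, UGT2B17 and UGT2B28) and 4 steroid-converting enzymes (SRD5A1, SRD5A3, HSD17B4 and HSD17B6) were followed in the RNAseq of C4-2 cells treated with PBKi or DMSO. These 10 genes of the 54127 in the count files were listed by symbol for their place in androgen metabolism by a rule that uses no measured value. C4-2 is an established castration-resistant prostate cancer line derived from LNCaP, and a single line limits the results to that background. All cells were grown in RPMI with serum. The 6 PBKi libraries came from cells given 1 µM of HI-TOPK-032, which inhibits the kinase PBK, for 6 h, and the 6 DMSO libraries from vehicle-treated cells. The comparison asks how the transcripts of enzymes that make, reactivate and remove androgens responded to PBK inhibition.

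Androgen action in a prostate cell depends on local enzymes as well as on the receptor. Steroid 5α-reductases turn testosterone into dihydrotestosterone (DHT), hydroxysteroid dehydrogenases shift androgens between active and inactive forms, and UGT2B enzymes attach glucuronic acid, which makes the steroid water soluble and ends its binding to the androgen receptor. UGT2B15 and UGT2B17 are the principal enzymes that glucuronidate DHT and its metabolites in the prostate, and androgens are known to repress both in LNCaP cells.

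The UGT2B genes are near copies of each other and lie together on chromosome 4, which bears on every read count given for them. Over the coding sequence, UGT2B11 and UGT2B28 were 97.04% identical (47 of 1587 bases differed), and UGT2B15 and UGT2B17 were 96.5% identical (55 of 1590 bases differed). The least alike pair was UGT2B15 and UGT2B28, at 84.3% identity. The stretch of 80 coding bases in which each close pair differed most is shown because only reads over such bases can be assigned to 1 gene. Capitals mark the bases that differ within the pair, and all 4 stretches lie inside a coding exon of GRCh37. The UGT2B15 stretch is at chr4:69535902-69535981 (minus strand) and its UGT2B17 counterpart at chr4:69433768-69433847 (minus strand), with 10 differing bases. The UGT2B11 stretch is at chr4:70080348-70080427 (minus strand) and its UGT2B28 counterpart at chr4:70146232-70146311 (plus strand), with 5.
UGT2B15: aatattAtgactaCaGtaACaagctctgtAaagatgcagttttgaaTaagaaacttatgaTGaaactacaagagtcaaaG
UGT2B17: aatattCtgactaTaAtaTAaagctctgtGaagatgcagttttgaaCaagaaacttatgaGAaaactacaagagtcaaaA
UGT2B11: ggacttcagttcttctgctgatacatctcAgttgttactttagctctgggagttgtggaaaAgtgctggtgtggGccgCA
UGT2B28: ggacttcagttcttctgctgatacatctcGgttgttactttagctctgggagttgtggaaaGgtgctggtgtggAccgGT

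Other stretches are the same in both genes of a pair. The longest run without a difference between UGT2B15 and UGT2B17 was 199 coding bases across 3 exons (coding positions 866 to 1064, which span chr4:69520842-69533765 in UGT2B15 and chr4:69417571-69431297 in UGT2B17 with the introns included), and a read that falls within it matches both genes. It is printed once, in lower case throughout, since no base differs between the genes.
UGT2B15 and UGT2B17: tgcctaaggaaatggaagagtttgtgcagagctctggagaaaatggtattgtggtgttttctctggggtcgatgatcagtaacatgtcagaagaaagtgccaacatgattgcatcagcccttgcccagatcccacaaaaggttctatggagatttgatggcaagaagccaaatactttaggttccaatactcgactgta

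The reads were 40 bases long, so each gene's exons were divided into all 40-base windows and each window was looked for in the genome. Of the exonic windows of UGT2B11, 45.5% occurred once in GRCh37, and the shares were 54.8% for UGT2B28, 67.5% for UGT2B15, 69.2% for UGT2B10, 71.1% for UGT2B17 and 87.1% for UGT2B7. The remaining windows are those whose reads the counting drops as not uniquely aligned. The 4 steroid-converting enzymes were far more distinct, from 88.6% for SRD5A1 to 99.5% for HSD17B6. UGT2B15 shared 535 windows with UGT2B17, which were 28.2% of its own windows and 23.3% of those of UGT2B17. UGT2B11 had a copy of 26.8% of its windows in UGT2B28, and UGT2B28 of 30.6% of its windows in UGT2B11. Further copies lay in the pseudogenes UGT2B24P, UGT2B25P and UGT2B27P. The counts of the UGT2B genes therefore lack reads from the shared windows, and the order of levels among them is uncertain, whereas the same windows are lost in both treatments. Only exact copies were looked for, and reads with a mismatch that were counted for the wrong gene were not examined.

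**Figure D1:**
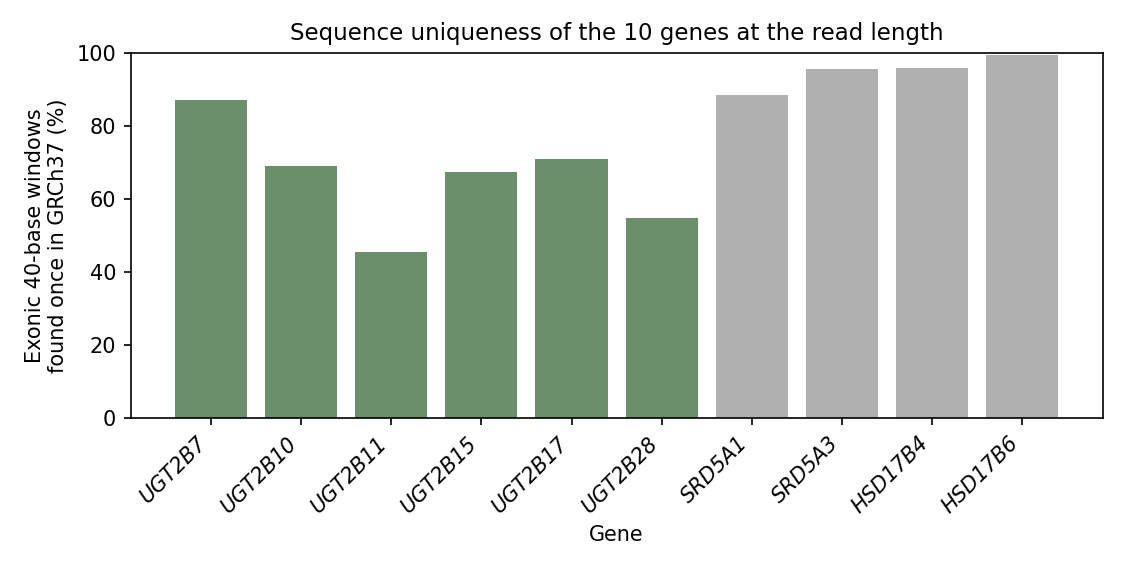
Share of exonic 40-base windows that occur once in GRCh37 (y axis, percent) for each of the 10 genes (x axis), UGT2B genes in green and the other enzymes in grey. UGT2B11 is lowest at 45.5% and HSD17B6 highest at 99.5%.

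Expression is given as CPM, which is a gene's count divided by the TMM-normalised size of its library. The libraries held 9663203 to 28029908 reads on genes in DMSO and 13122415 to 22817803 in PBKi, so that 3 counts, taken as the limit that a count of 0 allows, corresponded to between 0.108 and 0.325 CPM in a DMSO library and between 0.127 and 0.225 CPM in a PBKi library, for counting error only. Of 9 prostate luminal markers all 9 passed the count filter and their summed level was 4781 to 5747 CPM in DMSO and 2440 to 3324 CPM in PBKi. Among these 9, 1 marker was higher and 5 were lower, against 20.1% higher and 21.5% lower over all genes tested. The reason for these calls was not tested. Of 8 hepatocyte markers, 4 passed, with a summed level of 3.78 to 5.80 CPM in DMSO and 5.80 to 7.74 CPM in PBKi and no count of ALB or FGB in any library. Of 6 immune markers, 1 passed, with a summed level of 2.77 to 4.71 CPM in DMSO and 5.23 to 6.38 CPM in PBKi, and the part of these genes in the results was not tested. KLK3, which encodes prostate-specific antigen, went from 2959 ± 214 CPM with DMSO to 1131 ± 241 CPM with PBKi (SD, n = 6). Reads outside annotated genes reached 9.30% in PBKi, against at most 6.96% in DMSO, and were highest in PBKi replicates 3 and 6. The libraries of both groups separated by replicates 1 to 3 and 4 to 6 on the second principal component, which the labels do not name as a batch, and effects are given in each set where they differed in call or direction. In bulk samples, fewer cells of a type and less RNA per cell cannot be told apart.

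In DMSO the order of levels per kilobase of exon was HSD17B4, SRD5A3, SRD5A1, HSD17B6, UGT2B15, UGT2B17, UGT2B11, UGT2B28. On this scale the level of HSD17B4 was 10.9 ± 0.691 CPM per kilobase (SD, n = 6), that of SRD5A3 5.64 ± 0.532, that of SRD5A1 4.02 ± 0.172 and that of HSD17B6 2.88 ± 0.379. UGT2B15 stood at 0.917 ± 0.0955 CPM per kilobase, UGT2B17 at 0.264 ± 0.0765, UGT2B11 at 0.0686 ± 0.0341 and UGT2B28 at 0.0420 ± 0.0392 (SD, n = 6 each). The ranges of neighbours in this order did not overlap down to UGT2B11, while UGT2B11 and UGT2B28 overlapped. UGT2B10 and UGT2B7 lay at or near 0. Exon length counts the exons of every listed transcript, so a gene with many transcripts, such as HSD17B4, is understated.

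Of the 10 genes, 6 reached 10 counts in 6 libraries and were tested, and 3 of those 6 passed an adjusted p of 0.05, 1 higher and 2 lower in PBKi. Over all 14505 genes tested, 41.7% passed, 20.1% higher and 21.5% lower. The median log2 fold change was 0.0079 over the 6 genes and -0.012 over all genes tested. The ranges of the 6 DMSO and the 6 PBKi libraries did not overlap for 2 of the 6 genes, HSD17B6 and SRD5A1, both lower in PBKi, a pattern that 9.68% of all genes tested showed. Nothing in the sources states that replicates were separate cultures, so the p-values measure the spread between these libraries, which may be technical.

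**Figure D2:**
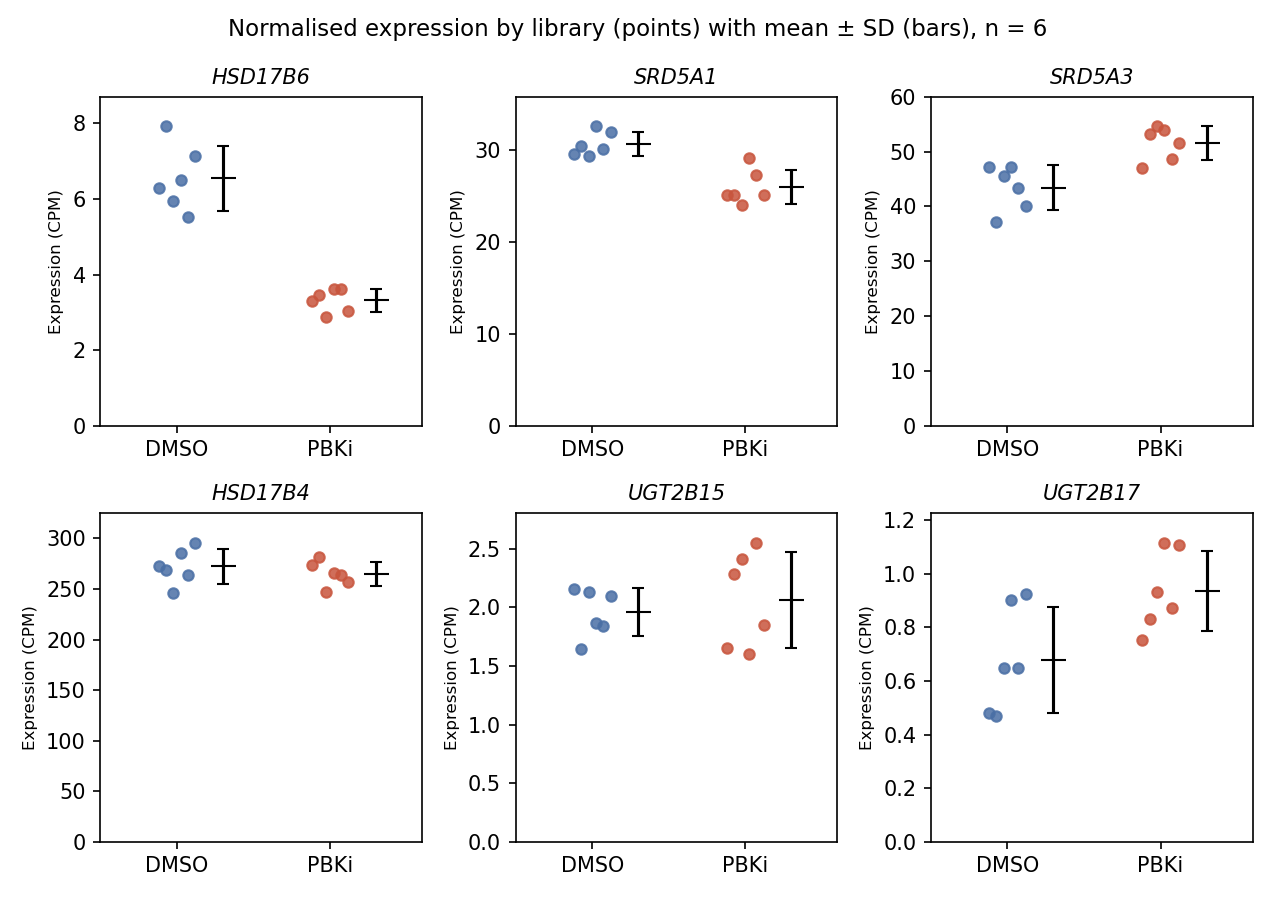
Normalised expression in CPM (y axes, from 0) of the 6 tested genes in DMSO and PBKi libraries, with 1 point per library and the mean ± SD over 6 libraries as bars beside the points. The PBKi libraries lie below every DMSO library for HSD17B6 (2.88 to 3.62 against 5.52 to 7.92 CPM) and SRD5A1, and the groups overlap for the other 4 genes.

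HSD17B6, an oxidative 3α-hydroxysteroid dehydrogenase that converts the inactive metabolite 3α-androstanediol back to DHT, showed the largest change of the 6. The gene (ENSG00000025423) lies on the plus strand of chromosome 12 of GRCh37, at chr12:57145945-57181574. Its level ranged from 5.52 to 7.92 CPM in DMSO with a median of 6.40, and from 2.88 to 3.62 CPM in PBKi with a median of 3.38. Every PBKi library lay below every DMSO library, with DMSO replicate 5 and PBKi replicate 5 closest to each other. Between group means of 6.55 ± 0.862 and 3.32 ± 0.308 CPM (SD, n = 6), HSD17B6 fell by 0.98 on the log2 scale (standard error 0.110, edgeR quasi-likelihood test, adjusted p = 2.02e-06), a change of -49.2% with a 95% confidence interval from -56.8% to -40.4%. The two-sided exact permutation test gave p = 0.00216, the smallest value that 6 against 6 libraries allow. The fall was present in both replicate sets, with a log2 fold change of -1.04 in replicates 1 to 3 and -0.90 in replicates 4 to 6.

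HSD17B6 rests on 51 to 165 counts per library in DMSO and 41 to 81 in PBKi. A stretch of 132 exon bases, 5.81% of its exon length, overlaps the primase gene PRIM1 on the opposite strand, and whether the counting used strand is not given in the sources used here. PRIM1 was also lower in PBKi, at 75.4 ± 6.95 CPM in DMSO and 55.0 ± 5.18 CPM in PBKi (SD, n = 6; log2 fold change -0.46, edgeR adjusted p = 5.51e-05), and its part in the reads of HSD17B6 was not tested.

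SRD5A1 and SRD5A3 moved in opposite directions. SRD5A1 encodes the type 1 5α-reductase, which reduces testosterone and androstenedione, and lies at chr5:6633540-6674499 (ENSG00000145545, plus strand). It ranged from 29.4 to 32.6 CPM in DMSO with a median of 30.3, and from 24.03 to 29.1 CPM in PBKi with a median of 25.1. The groups did not overlap, but only by a narrow margin, since PBKi replicate 4 at 29.1 CPM lay just under DMSO replicate 3 at 29.4 CPM. SRD5A1 fell by 0.24 on the log2 scale (standard error 0.0599, edgeR adjusted p = 0.00405), a change of -15.2% with a 95% confidence interval from -22.3% to -7.48% (two-sided exact permutation p = 0.00216).

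SRD5A3 encodes an enzyme first described as another 5α-reductase and known as a polyprenol reductase in the synthesis of dolichol, the lipid carrier of N-glycosylation. It lies at chr4:56212380-56239267 (ENSG00000128039, plus strand). Its level ranged from 37.1 to 47.2 CPM in DMSO with a median of 44.4, and from 47.0 to 54.6 CPM in PBKi with a median of 52.4. Of the 6 PBKi libraries, 5 lay above every DMSO library, and PBKi replicate 1 at 47.0 CPM lay just under DMSO replicates 1 and 4. SRD5A3 rose by 0.24 on the log2 scale (standard error 0.0653, edgeR adjusted p = 0.00623), an increase of 18.4% with a 95% confidence interval from 7.65% to 30.3% (two-sided exact permutation p = 0.00649). Its antisense neighbour SRD5A3-AS1, which shares 1082 exon bases with it, had 0.516 ± 0.122 CPM in DMSO and 0.387 ± 0.0748 CPM in PBKi (SD, n = 6). A gene on the same strand, ENSG00000288695, overlaps 1787 exon bases of SRD5A3, 23.2% of its exon length, and is absent from the count files. The part of these neighbours in the reads of SRD5A3 was not tested.

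For both SRD5A1 and SRD5A3 the call differed between the replicate sets, which hold 3 libraries per group each. In replicates 1 to 3 the log2 fold change was -0.26 for SRD5A1 (edgeR adjusted p = 0.00611) and 0.26 for SRD5A3 (edgeR adjusted p = 0.0217). In replicates 4 to 6 it was -0.22 for SRD5A1 (edgeR adjusted p = 0.130) and 0.24 for SRD5A3 (edgeR adjusted p = 0.0810). The difference between the sets was tested as an interaction and passed for 0 of the 14505 genes (edgeR, 700 genes at an unadjusted p under 0.05), and its unadjusted p was 0.619 for SRD5A1 and 0.948 for SRD5A3 (edgeR).

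HSD17B4 encodes a peroxisomal multifunctional enzyme that oxidises 17β-hydroxysteroids and takes part in the β-oxidation of fatty acids. It lies at chr5:118788160-118972894 (ENSG00000133835, plus strand) and was the most abundant of the 10 transcripts. Its level ranged from 246.5 to 295.7 CPM in DMSO with a median of 270.9, and from 246.5 to 281.2 CPM in PBKi with a median of 264.7. Every PBKi library fell within the range of the DMSO libraries. The log2 fold change was -0.041 (standard error 0.0524, edgeR adjusted p = 0.558), with a 95% confidence interval of the change from -9.95% to 4.92%. The sign differed between the replicate sets, at 0.032 in replicates 1 to 3 and -0.10 in replicates 4 to 6, with no call in either (edgeR adjusted p = 0.705 and 0.360).

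Among the UGT2B genes, UGT2B15 held most of the reads. It lies at chr4:69512315-69536370 (ENSG00000196620, minus strand) and had 17 to 59 counts per library in DMSO and 22 to 57 in PBKi. Its level ranged from 1.65 to 2.16 CPM in DMSO with a median of 1.98, and from 1.61 to 2.55 CPM in PBKi with a median of 2.06. The PBKi libraries lay on both sides of the DMSO range, with replicates 2, 3 and 5 above every DMSO library and replicate 4 below every one. The log2 fold change was 0.057 (standard error 0.154, edgeR adjusted p = 0.826), with a 95% confidence interval of the change from -16.9% to 30.1% (two-sided exact permutation p = 0.749). The 3 genes whose log2 CPM followed UGT2B15 most closely after subtraction of group means were SMAD1 (Pearson r = 0.936), QTRT2 (r = 0.849) and FRMD5 (r = 0.834), as a description over 12 libraries that share their depth. They were picked as the highest among the 14505 genes tested, and whether values of this size arise by chance was not tested.

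UGT2B17 lies at chr4:69402891-69442131 (ENSG00000197888, minus strand), on the same strand as UGT2B15. It had 6 to 18 counts in DMSO libraries and 10 to 25 in PBKi libraries. Its level ranged from 0.471 to 0.923 CPM in DMSO with a median of 0.649, and from 0.751 to 1.12 CPM in PBKi with a median of 0.902. All 6 PBKi libraries lay above the DMSO median and 3 lay above every DMSO library, while DMSO replicates 4 and 6 lay inside the PBKi range. The log2 fold change of 0.50 (standard error 0.213) did not pass after adjustment (edgeR adjusted p = 0.0669, two-sided exact permutation p = 0.0519), with a 95% confidence interval from an increase of 3.86% to one of 93.4%. Of 20 alternatives, 18 gave no call either. The 2 that did each left out a DMSO library of highest level. Without DMSO replicate 4 the log2 fold change was 0.61 (edgeR adjusted p = 0.0384), and without DMSO replicate 6 it was 0.60 (edgeR adjusted p = 0.0361). Among those with no call, it was 0.41 without DMSO replicate 1 (edgeR adjusted p = 0.160) and 0.30 in replicates 4 to 6 (edgeR adjusted p = 0.549).

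UGT2B15 and UGT2B17 were also compared with each other inside each library, where the size of the library cancels. The log2 ratio of UGT2B15 to UGT2B17 was 1.39 ± 0.381 in DMSO and 1.03 ± 0.381 in PBKi (SD, n = 6). The ratio differed by -0.36 between the groups, which did not exceed the spread between libraries (two-sided exact permutation p = 0.136, 1 pair compared). With 0.5 counts added the difference was -0.42 (two-sided exact permutation p = 0.110), and with 5 it was -0.28 (two-sided exact permutation p = 0.186). As a share of the summed counts of all 6 UGT2B genes, UGT2B15 held 61.4% to 75% in DMSO and 50% to 63.3% in PBKi. That sum was 25 to 91 counts per library in DMSO and 37 to 104 in PBKi.

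**Figure D3:**
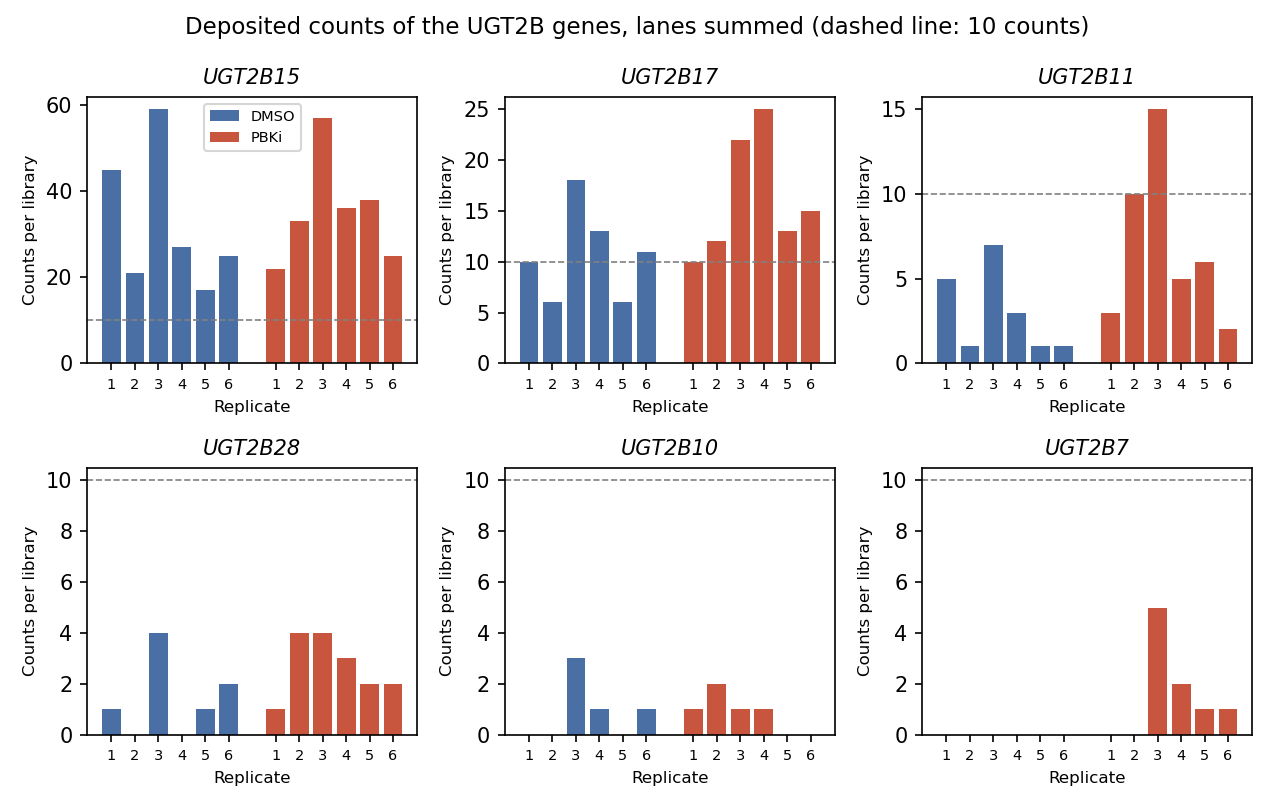
Deposited read counts with lanes summed (y axes) of the 6 UGT2B genes in each DMSO (blue) and PBKi (red) replicate (x axes), with a dashed line at the 10 counts required in 6 libraries. UGT2B15 and UGT2B17 passed that filter, UGT2B11 reached it in 2 libraries, and UGT2B28, UGT2B10 and UGT2B7 stayed under it in all 12.

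The other 4 UGT2B genes did not pass the filter and are given as counts. UGT2B11 (chr4:70065669-70080466, ENSG00000213759, minus strand) had 5, 1, 7, 3, 1 and 1 counts in DMSO replicates 1 to 6, and 3, 10, 15, 5, 6 and 2 in PBKi replicates 1 to 6. The summed counts were 18 in DMSO and 41 in PBKi, and PBKi replicates 2, 3 and 5 lay above every DMSO library in CPM. The two-sided exact permutation test of UGT2B11 gave an unadjusted p = 0.0476, which stands among the 10 genes examined. This test adds 2 counts to every library whatever its depth. At so few counts its values also reflect depth, so it cannot decide whether UGT2B11 differed. Of the exonic windows of UGT2B11, 54.5% have a copy elsewhere, the highest share of the 10 genes.

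UGT2B28 (chr4:70146193-70160768, ENSG00000135226, plus strand), which encodes a steroid-glucuronidating enzyme, had 1, 0, 4, 0, 1 and 2 counts in DMSO and 1, 4, 4, 3, 2 and 2 in PBKi (two-sided exact permutation p = 0.152). UGT2B10 (chr4:69681712-69697741, ENSG00000109181, plus strand), known for the N-glucuronidation of nicotine, had 5 counts summed over each group, with at most 3 in a library. UGT2B7 (chr4:69917081-69978705, ENSG00000171234, plus strand), an enzyme of broad specificity for steroids and drugs, had no count in the 6 DMSO libraries and 0, 0, 5, 2, 1 and 1 counts in PBKi (two-sided exact permutation p = 0.102). For UGT2B7 only PBKi replicate 3, the deepest PBKi library, exceeded 3 counts. The counts of these 3 genes overlapped between the groups. Their permutation tests did not pass 0.05 but have the same limit as that of UGT2B11, so no conclusion is drawn from them.

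The enzymes around the 10 genes were read from a list of 71 genes. It covered UDP-glucuronate supply and use, other glucuronosyltransferases, steroid dehydrogenases and reductases, steroidogenic cytochromes, sulfation and transport. Of the 71 genes, 68 were matched and 35 were tested, with 11 higher and 10 lower in PBKi, which is 60% called against 41.7% of all genes tested. The median log2 fold change was -0.0026. Of the 11 genes called higher, 6 (AKR1C1, AKR1C2, AKR1C3, HSD17B14, ABCC3 and HSD3B1) reached 10 counts in fewer than 3 DMSO libraries. These 6 passed the filter through the PBKi libraries, so their calls are no support for a direction of the list. They are also counted in the 60%, so that share is no support for a larger response of the list than of all genes.

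Of the 4 genes listed around the cofactor UDP-glucuronate, 2 were higher and 0 lower in PBKi. That is 50% called, against 41.7% of all genes tested. UGDH, which makes the UDP-glucuronate that every UGT2B enzyme uses, ranged from 76.3 to 87.7 CPM in DMSO (median 80.6) and from 90.0 to 97.8 CPM in PBKi (median 95.2), with no overlap. UGDH rose by 0.22 on the log2 scale (edgeR adjusted p = 0.00155), and SLC35D1, which carries the nucleotide sugar into the endoplasmic reticulum, rose by 0.62 (edgeR adjusted p = 0.0196) from 0.723 to 1.13 CPM on average. SLC35D1 lay near the count filter, with 10 counts reached in 3 DMSO libraries and 6 PBKi libraries. GUSB, the lysosomal glucuronidase that removes the conjugate, was 80.2 ± 7.83 CPM in DMSO and 81.9 ± 2.19 CPM in PBKi (SD, n = 6; edgeR adjusted p = 0.694). UGP2 and UXS1 did not pass the test.

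Of the 13 other steroid reductases and dehydrogenases tested, 6 were higher and 2 lower, or 61.5% called against 41.7% of all genes tested. All the higher ones except HSD17B1 entered the test through the PBKi libraries, so that share is no support for a larger response. The 17β-hydroxysteroid dehydrogenases among the 13 were called in both directions. HSD17B7 and HSD17B12 were not called (edgeR adjusted p = 0.109 and 0.432). HSD17B1, which makes oestradiol from oestrone, rose by 0.22 on the log2 scale (edgeR adjusted p = 0.0183), and HSD17B8 fell by 0.26 (edgeR adjusted p = 0.00565). HSD17B14, an oxidative 17β-hydroxysteroid dehydrogenase, ranged from 0.336 to 1.08 CPM in DMSO (7 to 30 counts, median 0.864 CPM) and from 3.36 to 4.28 CPM in PBKi (46 to 91 counts, median 3.85 CPM). The groups did not overlap and the fitted log2 fold change was 2.28 (standard error 0.200), for a gene that reached 10 counts in 2 DMSO libraries and so entered the test through the PBKi libraries. HSD17B3, the testis-type enzyme that makes testosterone from androstenedione, was under the filter, with 2 counts summed over the DMSO libraries and 53 over the PBKi libraries. The ratio of its counts, scaled to library size, was 25.1 with a 95% interval from 6.62 to 213 for counting error only. HSD17B11 fell by 0.23 on the log2 scale (edgeR adjusted p = 0.0303), HSD17B10 had a log2 fold change of -0.0026 (edgeR adjusted p = 0.979), and HSD17B2, which inactivates testosterone, had at most 1 count in any library. The aldo-keto reductases AKR1C1, AKR1C2 and AKR1C3, which reduce DHT or androstenedione, stood at 0.152, 0.369 and 0.252 CPM in DMSO and at 32.7, 86.2 and 12.4 CPM in PBKi (fitted log2 fold changes of 7.76, 7.91 and 5.55). AKR1C1 and AKR1C2 share sequence as the UGT2B genes do, with 59.1% and 56.0% of their windows unique.

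**Figure D4:**
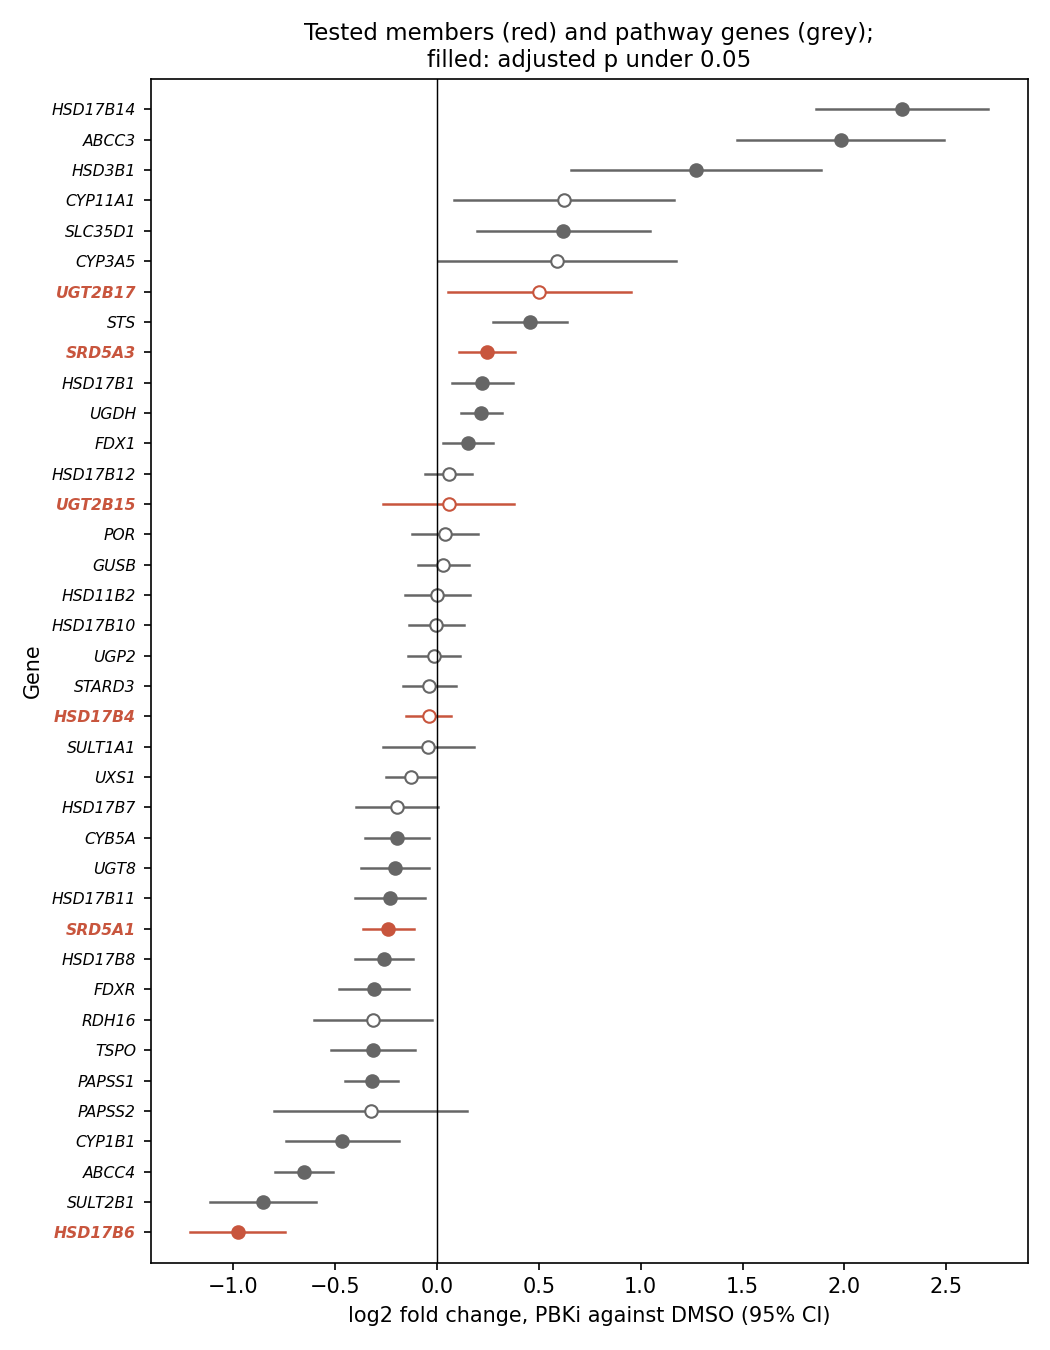
Log2 fold change of PBKi against DMSO with its 95% confidence interval (x axis) for the 6 tested genes (red) and the tested pathway genes (grey), with filled symbols for an adjusted p under 0.05. AKR1C1, AKR1C2 and AKR1C3 are left out because their values of 5.55 to 7.91 lie far beyond the axis, and HSD17B6 at -0.98 is the lowest of all genes drawn.

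HSD3B1, which turns dehydroepiandrosterone into androstenedione, had 1 to 13 counts per library in DMSO and 8 to 20 in PBKi, or 0.318 and 0.864 CPM on average, and likewise entered the test through the PBKi libraries. The steroid sulfatase STS, which frees sulfated precursors, rose by 0.46 (edgeR adjusted p = 0.000400). Its log2 fold change differed by -0.35 in replicates 4 to 6 from replicates 1 to 3 (edgeR interaction, unadjusted p = 0.0287, adjusted p = 0.927). SULT2B1, which sulfates cholesterol and 3β-hydroxysteroids, fell by 0.85 from 16.7 ± 2.03 to 9.22 ± 1.75 CPM (SD, n = 6; edgeR adjusted p = 3.19e-05), with no overlap between the groups. PAPSS1, which makes the sulfate donor, fell by 0.32 (edgeR adjusted p = 0.000495). Of the 5 sulfation genes tested, 1 was higher and 2 were lower, or 60% called against 41.7% of all genes tested.

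Of the exporters of conjugated steroids, ABCC4 fell by 0.65 from 389.9 to 248.4 CPM (edgeR adjusted p = 7.95e-07). ABCC3 had 1 to 8 counts per library in DMSO and 12 to 28 in PBKi, or 0.254 and 1.08 CPM on average, and entered the test through the PBKi libraries alone. Of the 9 cytochromes, electron donors and cholesterol carriers tested, 1 rose and 4 fell, or 55.6% called against 41.7% of all genes tested. Those that fell included the oestrogen hydroxylase CYP1B1 (log2 fold change -0.46, edgeR adjusted p = 0.00928), the mitochondrial cholesterol-binding protein TSPO (-0.31, edgeR adjusted p = 0.0164) and the electron donor FDXR (-0.31, edgeR adjusted p = 0.00604). CYP19A1, the aromatase that turns androgens into oestrogens, was under the filter with 1 count in DMSO and 53 in PBKi, a scaled ratio of 50.2 with a 95% counting interval from 8.64 to 2022. CYP19A1 is named here after its values were seen.

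The plot of fold changes under the alternatives shows how far each of the 6 tested genes moved with the processing. HSD17B6 kept its direction and its call under all 22 alternatives run for it, between -1.04 and -0.89. SRD5A1 and SRD5A3 kept their direction and each lost its call in 1 of 22 alternatives. UGT2B17 kept its direction between 0.30 and 0.64, with a call in 2 of 20 alternatives. UGT2B15 and HSD17B4 lay close to 0 and their sign turned under some alternatives.

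**Figure D5:**
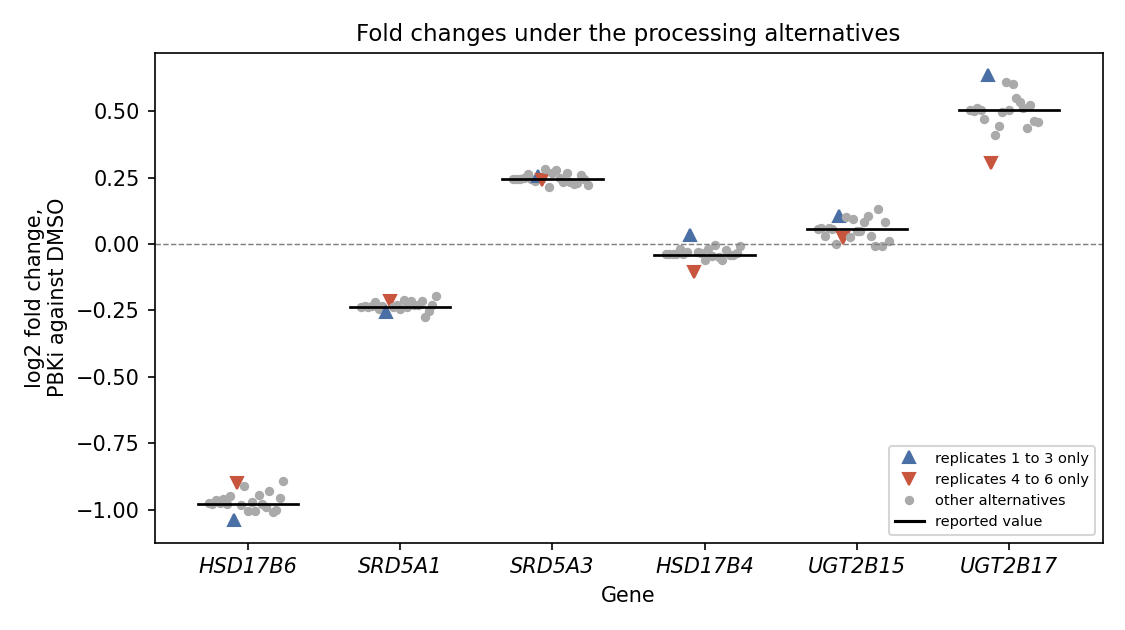
Log2 fold change of PBKi against DMSO (y axis) for the 6 tested genes (x axis), with the reported value as a black line, replicates 1 to 3 only as blue triangles, replicates 4 to 6 only as red triangles and the other alternatives as grey points. HSD17B6 stays between -1.04 and -0.89, and UGT2B17 spreads widest, from 0.30 to 0.64.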

How the data were processed

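RNAseq was measured in 12 libraries of C4-2 cells. According to the submitters' processing notes and the study's methods, single-end 40-base reads were aligned to GRCh37 with TopHat2 2.0.4 and counted per gene with HTSeq 0.5.3p9. The deposited values are raw counts per gene and lane, without normalisation. Lanes were summed per library (4 each, 3 for DMSO replicate 5), since lanes of a library agreed within sampling noise. The 10 genes, the gene lists and the tests were chosen with earlier results of these data known.

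The 14505 genes that reached 10 counts in 6 or more libraries were tested with edgeR 4.0.16 in R 4.3.3 (TMM, quasi-likelihood test, no covariates), and p-values were adjusted by Benjamini-Hochberg over all genes tested. The procedure was tested on simulated data. Permutation tests were run on log2 CPM (prior count 2, added to each library without scaling to its depth, which weighs most on genes with few counts). Alternatives were DESeq2 1.42.0, RLE factors, limma-voom (limma 3.58.1), other filters and thresholds, lanes 6 to 8, a replicate block, replicate sets and leaving out each library. Leaving out PBKi replicates 3 and 6 together was added after seeing the data. Exon windows and coordinates used GENCODE 44 mapped to GRCh37, whereas the authors counted on an older annotation.

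Named genes were the 10 genes, KLK3, the 6 largest rises and falls of the pathway list that passed the test, and enzymes of the same reactions (UGDH, GUSB, HSD17B2, HSD17B3, HSD17B10 and HSD17B11), with the 3 genes most like UGT2B15. Other genes of the list are named beside their group. SRD5A2, UGT2A2, UGT1A3 and the endothelial marker PECAM1 were not matched by symbol and are not analysed here. The fibroblast markers summed to 17.9 to 23.3 CPM in DMSO and 17.1 to 21.7 CPM in PBKi libraries, and the endothelial markers to 4.03 to 7.25 and 3.14 to 4.63 CPM.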

Additional observations from a re-analysis of the deposited data

How the results depend on the processing

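With the replicate number as a block, 3485 genes were higher and 3803 lower in PBKi, against 2921 and 3125, the log2 fold change was -0.98 for HSD17B6, -0.24 for SRD5A1, 0.25 for SRD5A3, -0.040 for HSD17B4, 0.055 for UGT2B15 and 0.47 for UGT2B17, and no call of these 6 genes changed (edgeR). Same-numbered libraries correlated at 0.0521 to 0.308 (mean 0.19) and 6 of 12 libraries correlated best with their own number. These values do not settle whether the numbers pair the libraries, and the block was kept as an alternative. Under lanes 6 to 8 only UGT2B15 turned to -0.0019, and it ran from -0.0092 to 0.13 with each library left out, below 0 without PBKi replicate 3 (-0.0092) or 5 (-0.0074). HSD17B4 turned to 0.032 in replicates 1 to 3. In replicates 4 to 6, SRD5A1 (-0.22, adjusted p = 0.130) and SRD5A3 (0.24, adjusted p = 0.0810) missed the threshold of edgeR, 1273 genes were higher and 1207 lower, and the pathway list had 5 higher and 4 lower. Replicates 1 to 3, with as many libraries, gave 3352 higher and 3187 lower, and 9 and 9 pathway genes. UGT2B17 ran from 0.41 to 0.61 with a library left out. An adjusted p of 0.01 left 2073 genes lower and 6 pathway genes lower. A further limit of 0.5 on the absolute log2 fold change left 1278 genes higher and 626 lower, with 7 and 2 pathway genes. At least 50 counts in 6 libraries left 7 pathway genes higher and removed UGT2B15 and UGT2B17, and lanes 6 to 8 removed UGT2B17. Without PBKi replicates 3 and 6 the pathway list had 6 genes lower, and SRD5A1 (-0.20), SRD5A3 (0.22) and HSD17B6 (-0.89) stayed past the threshold. With each library left out, 7 to 10 pathway genes were lower. The causes of these shifts were not tested. Depth limits all 6 UGT2B genes, at 104 counts or fewer per library in sum.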
